A study of Mus musculus with 20 samples.

Results

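Transcript levels of 50 genes of DNA replication and mitosis were followed in mouse lung, 33 of them with products that license, copy or supply DNA and 17 with products that drive or carry out mitosis. They were taken by symbol from a list, and all 50 were found among the 54532 Ensembl gene identifiers measured. The list was chosen with earlier results of these data known. Counts of its genes set beside shares of all genes thus describe the list and are not independent support. RNA sequencing covered 20 libraries in 4 groups of 5: a control group, an asthma model, and groups given SMD (Shegan-Mahuang Decoction, a Chinese herbal formula) or prednisone, a synthetic glucocorticoid. Every library was labelled as lung of genotype wt. The sources used here do not give strain, age, doses, times or the way the model was made. Nor do the labels state that the libraries of a group came from separate mice, so a p-value sets a difference against the spread among the libraries, and that spread could be technical.

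A cell that is about to divide first loads the MCM helicase onto its origins, then unwinds and copies its DNA with a sliding clamp and polymerases fed by newly made deoxynucleotides, and later condenses, attaches and separates its chromosomes under cyclin-dependent, Polo-like and Aurora kinases. Transcripts of the first kind build up towards S phase, largely through E2F factors, and those of the second kind towards G2 and M phase, through factors that bind CCAAT boxes and the cell cycle homology region (CHR). Most cells of an adult lung rest, and dividing cells there can be endothelial, immune or alveolar type 2 cells, among others. In bulk tissue, fewer cells of a type and less RNA per cell cannot be told apart.

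Values are FPKM, fragments scaled to gene length and to the library. Means over the 20 libraries lay between 0.234 and 42.3 FPKM for the replication genes, with a median of 3.16, and between 0.413 and 3.2 FPKM for the mitosis genes, with a median of 1.05. Pcna, the sliding clamp, stood first, and the next highest was Orc6, a subunit of the origin recognition complex, at 9.91 FPKM. Among mitosis genes, Ube2c, which loads ubiquitin for the complex that ends mitosis, was highest, and Cenpe, a kinetochore motor, was lowest. A test was made where a gene reached 1 FPKM in at least 5 libraries, which 26 of the 33 replication genes and 12 of the 17 mitosis genes did. Over the libraries, FPKM summed to between 377639 and 522361, the depth is unknown, and the log2 values of library pairs correlated across genes at 0.946 to 0.982. The 8 alveolar type 2 markers, taken as marks of that epithelial cell type of the lung, summed to between 14400 and 23500 FPKM in every library.

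Promoters were searched for 3 kinds of letters on both strands, from 250 bases before to 50 after each start listed by RefSeq for GRCm38.p6, where 41 of the 50 genes had an entry. The E2F letters TTTCGCGC, TTTGGCGC, TTTCCCGC or TTTGCCGC stood in 12 of 27 replication promoters (44.4%) and in 1 of 14 mitosis promoters (7.14%), against 2.6% of all 27025 genes with an entry. The letters CCAAT stood in 17 of the 27 replication promoters (63.0%) and in 13 of the 14 mitosis promoters (92.9%), against 41.1% of all genes. CHR letters, TTTGAA or TTCGAA, stood in 5 of the 27 (18.5%) and in 11 of the 14 (78.6%), against 21.7% of all genes. Both CCAAT and CHR letters were held by 4 of the 27 (14.8%) and by 11 of the 14 (78.6%), against 8.61% of all genes. Matches were counted wherever they stood, so neighbouring matches can share letters, as a pair of E2F matches in Mcm6 does. A gene with several listed starts was counted if any of its windows held the letters, and a match describes the sequence, not a bound site.

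The 200 bases before the RefSeq start of 7 genes are printed, 5′ to 3′ on the gene's strand, with matches in capitals. RefSeq and GENCODE starts can differ, and part of the bases printed for Topbp1, Ccnb1 and Cdk1 lies within the gene by its GENCODE position. Topbp1 (chr9:103305127-103305326, plus strand) and Mcm2 (chr6:88898781-88898980, minus strand) are the replication genes that rose with SMD and had an entry, and Mcm6 (chr1:128359706-128359905, minus strand) is shown for its 3 E2F matches. Mki67 (chr7:135716380-135716579), Top2a (chr11:99024190-99024389), Ccnb1 (chr13:100786487-100786686) and Cdk1 (chr10:69352913-69353112), all on the minus strand, are mitosis genes described further on.
Topbp1: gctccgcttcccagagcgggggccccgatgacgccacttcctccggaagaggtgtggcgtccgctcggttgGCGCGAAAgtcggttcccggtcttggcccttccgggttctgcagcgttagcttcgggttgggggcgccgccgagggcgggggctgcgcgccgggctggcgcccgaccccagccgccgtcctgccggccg
Mcm6: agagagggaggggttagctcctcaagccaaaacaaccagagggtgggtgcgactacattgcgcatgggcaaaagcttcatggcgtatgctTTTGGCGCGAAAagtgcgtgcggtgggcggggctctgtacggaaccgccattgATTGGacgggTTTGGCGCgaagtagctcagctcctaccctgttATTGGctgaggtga
Mcm2: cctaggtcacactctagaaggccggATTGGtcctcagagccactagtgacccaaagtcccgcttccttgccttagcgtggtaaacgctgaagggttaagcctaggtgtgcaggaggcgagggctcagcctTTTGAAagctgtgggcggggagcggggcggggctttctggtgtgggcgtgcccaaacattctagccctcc
Mki67: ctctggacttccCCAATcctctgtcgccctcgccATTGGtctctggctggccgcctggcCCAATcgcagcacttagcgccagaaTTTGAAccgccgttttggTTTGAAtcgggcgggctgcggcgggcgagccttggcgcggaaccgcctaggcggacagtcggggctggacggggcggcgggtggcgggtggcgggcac
Top2a: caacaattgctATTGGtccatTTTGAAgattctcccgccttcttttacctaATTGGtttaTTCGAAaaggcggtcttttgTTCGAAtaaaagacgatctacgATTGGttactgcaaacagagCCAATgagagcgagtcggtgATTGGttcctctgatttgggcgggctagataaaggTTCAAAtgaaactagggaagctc
Ccnb1: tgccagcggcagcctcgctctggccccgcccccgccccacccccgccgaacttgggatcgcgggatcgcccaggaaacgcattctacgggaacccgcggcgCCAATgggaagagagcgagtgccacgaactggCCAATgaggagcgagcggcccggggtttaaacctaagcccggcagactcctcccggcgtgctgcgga
Cdk1: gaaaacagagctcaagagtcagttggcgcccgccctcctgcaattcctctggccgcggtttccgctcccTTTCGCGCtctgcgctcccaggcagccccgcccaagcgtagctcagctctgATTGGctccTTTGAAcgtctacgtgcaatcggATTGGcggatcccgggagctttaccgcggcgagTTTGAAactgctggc
Within these bases, Topbp1 held 1 E2F match and neither of the others, and Mcm2 held 1 CCAAT and 1 CHR match but no E2F match. Mki67 held 3 CCAAT and 2 CHR matches, and Top2a 5 and 4. Ccnb1 held 2 CCAAT matches and no CHR match. Cdk1 joined all 3 kinds.

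Replication genes were compared first. Against the model, 2 of the 26 tested rose with SMD, Mcm2 and Topbp1, and none fell, where 0.245% of all 15106 genes tested rose and 1.91% fell (limma, adjusted p under 0.05 over all genes). Log2 fold changes were above 0 for 22 of the 26, against 34.3% of all genes, and their median was 0.19, against -0.06 over all genes. A further 8 genes were higher at an unadjusted p under 0.05 only, so that 10 of 26 passed that mark, against 3.14% of all genes. Those 8 were Gins1, Lig1, Cdt1, Mcm3, Mcm4, Rfc3, Rrm1 and Fen1.

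The other comparisons called between 0 and 2 replication genes. With prednisone against the model, 1 of 26 fell (Tipin) and none rose, where 7.13% of all genes fell and 0.914% rose. In that comparison 15 of 26 were above 0 with a median of 0.04, and at an unadjusted p under 0.05 2 were higher and 3 lower, against 5.04% and 18.5%. SMD was above prednisone for 2 of 26, Tipin and Rfc4, where 2.16% of all genes were higher and 2.42% lower, and 9 of 26 were higher at an unadjusted p under 0.05, against 9.7%. With prednisone against control, Tipin alone fell, where 1.79% of all genes fell and 1.78% rose. None of the 26 was called for the model against control, where 0.192% of all genes rose and 0% fell, and 3 of the 26 were lower at an unadjusted p under 0.05 (Mcm2, Topbp1 and Tipin), against 2.81% of all genes. SMD against control called none either, where 0.291% of all genes rose and 0.761% fell, while at an unadjusted p under 0.05 8 were higher and 2 lower, against 6.48% and 8.06%. Those 8 were 1 without control 3, 1 without SMD 5 and 0 without SMD 4 and 5. The comparisons share libraries (SMD and prednisone were set against the same 5 model libraries), so their values are not independent of each other.

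**Figure D1:**
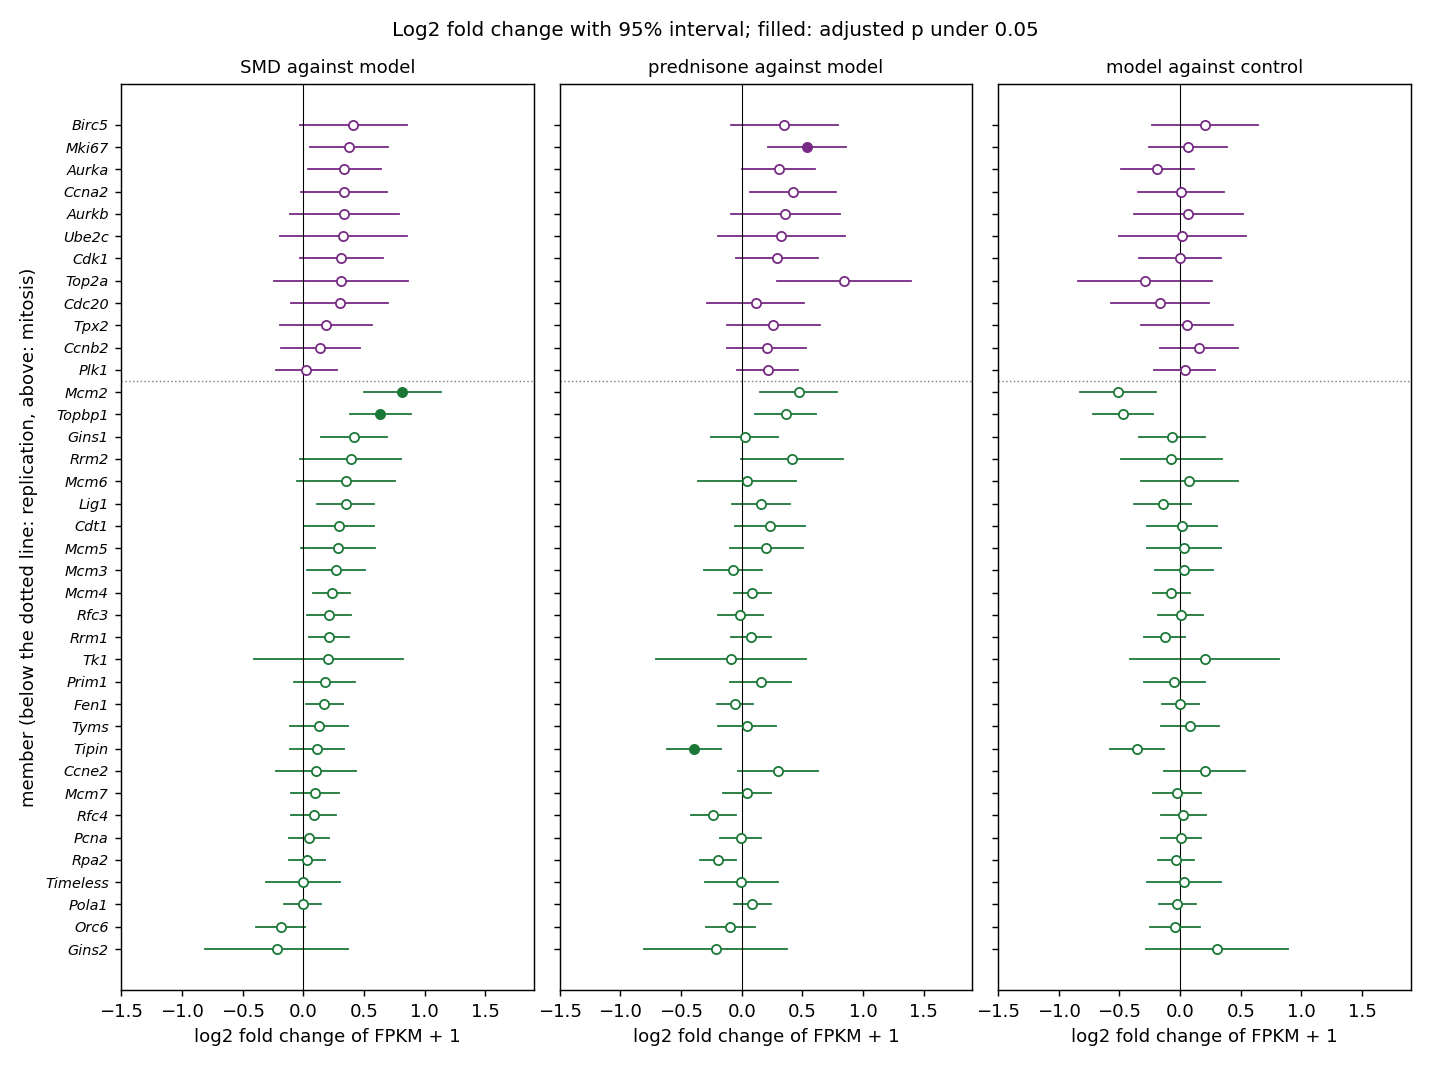
Log2 fold changes of FPKM + 1 (x axis) with 95% intervals for the 38 genes tested (y axis, mitosis above the dotted line), in 3 comparisons with filled points for an adjusted p under 0.05. Mcm2 and Topbp1 stand farthest to the right among replication genes for SMD against the model, and all 12 mitosis genes lie above 0 for both treatments against the model.

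Mcm2 (chromosome 6, 88883474 to 88898780 of GRCm38, minus strand) encodes a subunit of the MCM helicase. Its FPKM was 3.3, 3.05, 2.55, 2.61 and 3.0 in control replicates 1 to 5 and 1.4, 1.42, 1.68, 1.53 and 2.86 in the model. It was 3.09, 3.48, 3.18, 4.52 and 5.08 with SMD and 2.52, 3.31, 3.79, 2.81 and 1.8 with prednisone. All 5 SMD libraries stood above all 5 model libraries, as for 0.589% of all genes, and 4 of the model libraries were the lowest of the 20, with model 5 among the controls. The mean rose from 1.78 ± 0.613 to 3.87 ± 0.883 FPKM (SD, n = 5 each), a log2 fold change of 0.82 (SE 0.151, 95% interval 0.50 to 1.13, limma adjusted p = 0.0132). Mcm2 in the model was lower than in control (2.9 ± 0.316 FPKM) by a log2 difference of -0.51, without a call (limma adjusted p = 0.125), and prednisone against the model gave 0.47 (limma adjusted p = 0.0618).

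Topbp1 (chromosome 9, 103305215 to 103350428, plus strand) encodes a scaffold that helps to fire origins and activates the checkpoint kinase ATR. Its FPKM was 5.86, 7.11, 5.97, 5.77 and 7.95 in control and 5.6, 3.86, 4.11, 3.52 and 5.27 in the model. It was 7.17, 6.65, 7.51, 8.25 and 7.51 with SMD and 5.48, 6.67, 4.58, 5.93 and 7.46 with prednisone. The model libraries lay below every control and every SMD library, while prednisone overlapped all 3 other groups. With SMD the mean rose from 4.47 ± 0.913 to 7.42 ± 0.582 FPKM (n = 5 each), a log2 fold change of 0.63 (SE 0.119, limma adjusted p = 0.0134). The model against control gave -0.47 (SE 0.119, limma adjusted p = 0.0843), where 0.331% of all genes had model libraries wholly below control.

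Without SMD 4 and 5, which leaves 3 SMD libraries, the log2 fold changes were 0.64 for Mcm2 and 0.58 for Topbp1, with limma adjusted p of 0.0631 and 0.0547. Adipose markers moved with the groups: the 9 summed to 9.85 to 22.4 FPKM with SMD, 19.2 to 240 in the model, 29.2 to 379 in control and 16.6 to 52.8 with prednisone. Of the 7 tested, 6 were lower with SMD than in the model at an unadjusted p under 0.05, against 15.7% of all genes. None had an adjusted p under 0.05, where 1.91% of all genes fell. With the adipose level as a covariate, Mcm2 gave 0.78 (limma adjusted p = 0.119) and Topbp1 0.49 (limma adjusted p = 0.157). In that fit, 2 genes of the whole table were called for SMD against the model, in place of 325.

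The other helicase subunits differed less. Mcm5 measured 3.51, 3.25, 1.93, 2.56 and 2.48 FPKM in control, 2.37, 3.11, 3.04, 3.09 and 2.38 in the model, 2.75, 3.1, 3.14, 4.58 and 4.9 with SMD, and 2.88, 3.96, 3.38, 2.52 and 4.28 with prednisone. Mcm6 measured 3.47, 3.18, 3.09, 1.87 and 4.42 FPKM in control, 2.76, 4.38, 3.76, 2.79 and 3.28 in the model, 3.59, 3.79, 3.55, 5.79 and 6.8 with SMD, and 1.93, 4.46, 3.92, 3.47 and 4.17 with prednisone. In both genes SMD 4 and 5 stood above all the other libraries and the other 3 SMD libraries lay at the model's levels. SMD against the model gave a log2 fold change of 0.29 for Mcm5 (95% interval -0.02 to 0.59, limma adjusted p = 0.293) and of 0.35 for Mcm6 (-0.05 to 0.76, limma adjusted p = 0.334). Mcm3, Mcm4 and Mcm7 gave values of the same sign at 0.27, 0.23 and 0.10, so all 6 subunits were above 0.

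Among the genes that load or start the helicase, Gins1, a subunit of the GINS complex that joins MCM to Cdc45, was 1.11 ± 0.428 FPKM in the model and 1.8 ± 0.395 with SMD (n = 5 each, log2 fold change 0.42, limma adjusted p = 0.0893). Cdt1, which brings MCM to origins, gave 0.29 (limma adjusted p = 0.26). Orc6 and Gins2 had the opposite sign, at -0.19 and -0.22. Gins2 was the least even of these 4, with 1.77 to 8.29 FPKM over the libraries, and 2758 of its 4097 exonic bases are shared with Gse1 on the opposite strand. Reads of such pairs cannot be told apart unless strand was used, and the sources used here do not say.

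Among the 3 fork protection genes, Tipin was called. Tipin (chromosome 9, 64281581 to 64305424, plus strand) encodes the partner of Timeless in the complex that keeps a stalled fork together. Its FPKM was 10.4, 10.6, 9.07, 9.05 and 11.5 in control and 6.69, 10.6, 6.5, 7.77 and 7.36 in the model. It was 6.86, 8.5, 8.52, 9.43 and 8.8 with SMD and 5.66, 6.29, 5.63, 5.72 and 4.8 with prednisone. Every prednisone library was below all 15 others. Of all genes, 6.68% had prednisone wholly below the model, 3.14% wholly below control and 2.74% wholly below SMD, and the share below all 15 was not counted. Against control the mean fell from 10.1 ± 1.05 to 5.62 ± 0.532 FPKM (n = 5 each), a log2 fold change of -0.75 (SE 0.106, limma adjusted p = 0.00128). Against the model, at 7.77 ± 1.64 FPKM, Tipin fell by 0.39 on the log2 scale (SE 0.106, limma adjusted p = 0.0291).

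SMD stood above prednisone for Tipin by a log2 difference of 0.51 (8.42 ± 0.949 against 5.62 ± 0.532 FPKM, limma adjusted p = 0.0101). Without SMD 4 and 5 this became 0.43 (limma adjusted p = 0.0917). The call for prednisone against the model was lost in 9 of 28 alternatives. Among them were median-of-ratios scaling, at -0.35 (limma adjusted p = 0.0587), and leaving out model 2, at -0.29 (limma adjusted p = 0.0755). The call for prednisone against control held under all 28 alternatives, between -0.84 and -0.70. Timeless itself gave nearly equal group means, 4.83 ± 0.937 FPKM in control, 4.99 ± 1.02 in the model, 4.95 ± 0.808 with SMD and 4.99 ± 1.14 with prednisone. Clspn, the checkpoint mediator claspin, stayed below 1 FPKM in every library, with 0.0832 to 0.575.

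Pcna was the most abundant of the genes and varied little. It measured 41.8, 41.3, 36.7, 44.8 and 44.5 FPKM in control, 38.6, 40.7, 46.0, 37.4 and 48.1 in the model, 43.9, 39.6, 38.7, 47.0 and 47.8 with SMD, and 40.2, 41.5, 41.2, 39.0 and 46.8 with prednisone. The 4 groups overlapped throughout. SMD against the model gave 0.04 (95% interval -0.12 to 0.21, limma adjusted p = 0.816) and prednisone against the model -0.01 (-0.18 to 0.16, limma adjusted p = 0.959). The annotated copy Pcna-ps2 reached 4.4 FPKM, and reads that fit both could have been split.

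Rfc4 (chromosome 16, 23113943 to 23127737, minus strand), a subunit of the loader that opens the clamp, was the other gene higher with SMD than with prednisone. It measured 3.09, 3.73, 3.29, 3.71 and 2.61 FPKM in control, 3.32, 3.46, 3.63, 2.8 and 3.61 in the model, 3.11, 3.23, 3.75, 3.87 and 4.2 with SMD, and 2.63, 2.89, 2.42, 2.49 and 3.13 with prednisone. All but SMD 1 lay above the highest prednisone library. The means were 3.63 ± 0.454 and 2.71 ± 0.292 FPKM (n = 5 each), a log2 difference of 0.32 (SE 0.0892, limma adjusted p = 0.048). This call was lost in 20 of 29 alternatives, with limma adjusted p up to 0.273 (without SMD 4 and 5, at 0.23). Rfc4 shares 194 of its 1533 exonic bases with Eif4a2 on the opposite strand, a gene at a mean of 239 FPKM whose own difference was -0.09 (limma adjusted p = 0.445).

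Of the remaining copying genes, Lig1, which seals the lagging strand, was 3.19 ± 0.617 FPKM in the model and 4.33 ± 0.774 with SMD (n = 5 each, log2 fold change 0.35, limma adjusted p = 0.103). Fen1, the flap nuclease, gave 0.17 and Rfc3 0.21, both at a limma adjusted p over 0.2. Of the 2422 exonic bases of Fen1, 1909 are shared with Gm10143 on the opposite strand, so its reads too may be mixed. Rpa2, which coats single-stranded DNA, had prednisone libraries wholly below control (6.28 ± 0.41 against 7.54 ± 0.803 FPKM, log2 fold change -0.23, limma adjusted p = 0.0755), as 3.14% of all genes did. Its prednisone libraries were also wholly below SMD, as for 2.74% of all genes, with a log2 difference of 0.22 for SMD against prednisone (limma adjusted p = 0.0779). Prim1, the primase subunit, and Pola1, the polymerase that extends its primers, gave 0.18 and -0.004 for SMD against the model.

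Rrm2, the regulated subunit of the ribonucleotide reductase that makes deoxynucleotides, was uneven among the treated libraries. It measured 1.81, 1.75, 1.51, 0.794 and 2.07 FPKM in control, 1.51, 1.44, 1.36, 1.36 and 1.45 in the model, 1.03, 1.54, 2.46, 2.56 and 4.08 with SMD, and 1.28, 2.24, 3.05, 2.14 and 2.73 with prednisone. The model libraries lay close together, whereas SMD spread from below to far above them. Log2 fold changes against the model were 0.39 with SMD (95% interval -0.03 to 0.81, limma adjusted p = 0.303) and 0.41 with prednisone (-0.004 to 0.83, limma adjusted p = 0.218). Its partner Rrm1 gave 0.21 with SMD (limma adjusted p = 0.158), and Tyms and Tk1, which make and salvage thymidine nucleotides, gave 0.13 and 0.21. The G1/S cyclin gene Ccne2 was not called by limma, and its prednisone libraries lay wholly above control (1.94 ± 0.528 against 1.07 ± 0.243 FPKM, log2 fold change 0.50, limma adjusted p = 0.0835), as 2.44% of all genes did. Of its 3495 exonic bases, 609 are shared with Ints8 on the opposite strand.

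**Figure D2:**
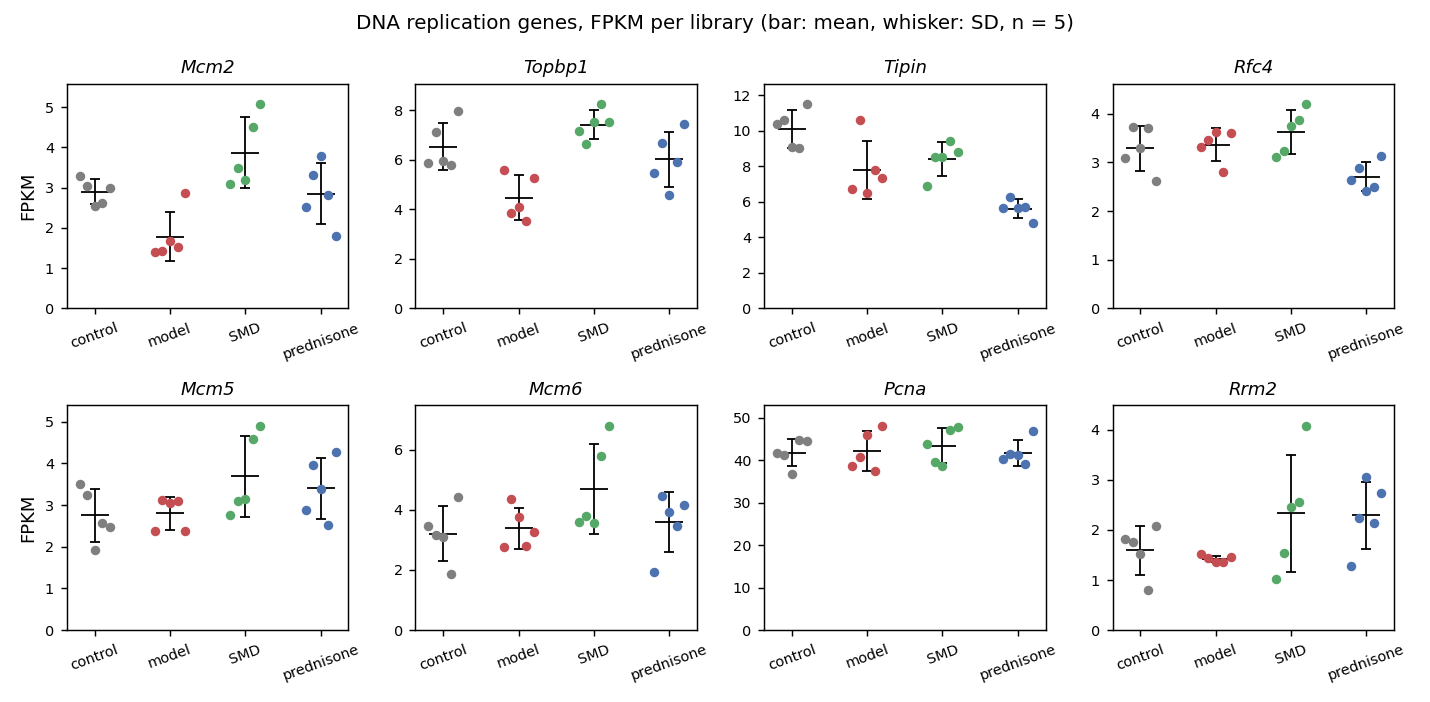
FPKM (y axis) of 8 replication genes in each library (points, replicates 1 to 5 from left to right) by group (x axis), with the mean as a bar and the SD as whiskers, n = 5. Mcm2 and Topbp1 are lowest in the model, Tipin is lowest with prednisone, and Pcna is level at 36.7 to 48.1 FPKM.

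Mitosis genes gave another order of groups. The group mean was highest with SMD for 9 of the 17 and with prednisone for the remaining 8, and for none in control or the model. Of the 33 replication genes, 22 had their highest mean with SMD, 6 with prednisone, 3 in control and 2 in the model. Over all genes tested, the highest mean fell to SMD for 17.4%, to prednisone for 25.0%, to control for 18.3% and to the model for 39.4%.

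Against the model, 1 of the 12 mitosis genes tested rose with prednisone, Mki67, and none fell (0.914% and 7.13% of all genes). All 12 were above 0, against 38.2% of all genes, with a median of 0.32, and 4 were higher at an unadjusted p under 0.05, against 5.04%. Those 4 were Mki67, Top2a, Ccna2 and Aurka. With SMD against the model none of the 12 was called by limma, although all 12 were above 0, against 34.3% of all genes, with the same median of 0.32, and 2 were higher at an unadjusted p under 0.05, Mki67 and Aurka, where 3.14% of all genes were and 0.245% rose by adjusted p. Prednisone against control called Mki67 alone, where 1.78% of all genes rose and 1.79% fell, with 11 of 12 above 0, against 49% of all genes, and 5 higher at an unadjusted p under 0.05, against 10.2% of all genes. SMD against prednisone called none, with 4 of 12 above 0, against 48.9% of all genes, a median of -0.05 and 0 at an unadjusted p under 0.05 in either direction, against 9.7% higher and 9.78% lower.

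SMD against control called none of the 12 either, with 12 above 0, against 48.7% of all genes, a median of 0.31 and 2 higher at an unadjusted p under 0.05, Mki67 and Birc5, against 6.48% of all genes (0.291% rose and 0.761% fell by adjusted p). That median was 0.17 without SMD 5 and 0.06, with 7 of 12 above 0, without SMD 4 and 5. The model against control was close to 0 for mitosis genes, with a median of 0.03, 9 of 12 above 0 (65.9% of all genes), 0 limma calls (0.192% of all genes) and 0 at an unadjusted p under 0.05 (13% of all genes higher and 2.81% lower). For replication genes the same comparison had 13 of 26 above 0, against 65.9% of all genes, but 5 of 26 with median-of-ratios scaling, while the all-gene median moved from 0.05 to 0.00. A p that misses the threshold does not show that the groups were alike.

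Mki67 (chromosome 7, 135689784 to 135716361, minus strand) encodes Ki-67, which coats mitotic chromosomes and is used as a marker of cycling cells. Its FPKM was 1.35, 1.11, 1.04, 0.963 and 1.39 in control and 1.0, 1.47, 1.34, 1.3 and 1.24 in the model. It was 1.11, 1.48, 1.93, 2.28 and 3.33 with SMD and 1.58, 2.42, 2.75, 1.95 and 2.95 with prednisone. Every prednisone library was above every control and model library (0.9% of all genes for the model and 2.44% for control, each taken alone), whereas the SMD libraries began within their range and SMD 5 was the highest of all 20. With prednisone the mean rose from 1.27 ± 0.171 to 2.33 ± 0.567 FPKM (n = 5 each), a log2 fold change of 0.54 (SE 0.153, limma adjusted p = 0.0356), and by 0.60 against control at 1.17 ± 0.191 FPKM (SE 0.153, limma adjusted p = 0.0346). SMD against the model gave 0.37 (95% interval 0.05 to 0.69, limma adjusted p = 0.19), and SMD against prednisone -0.16 (-0.48 to 0.16, limma adjusted p = 0.609).

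These calls were close to the threshold. Leaving out single libraries gave limma adjusted p up to 0.0873 against the model and 0.0889 against control, and with the adipose level as a covariate they were 0.0957 and 0.21. All alternatives kept the sign, between 0.47 and 0.80 against the model.

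Top2a, the topoisomerase that untangles sister chromosomes, had the largest log2 fold change of the mitosis genes for prednisone against the model. It measured 2.86, 2.21, 0.743, 1.15 and 2.9 FPKM in control, 0.94, 1.19, 2.34, 1.01 and 1.34 in the model, 1.2, 1.12, 1.65, 2.98 and 2.95 with SMD, and 1.62, 3.24, 3.51, 2.73 and 5.69 with prednisone. Prednisone 1 lay below model 3 and among the controls, and the control libraries themselves fell into 3 high and 2 low values. The means were 1.36 ± 0.567 FPKM in the model and 3.36 ± 1.49 with prednisone (n = 5 each), a log2 fold change of 0.85 (SE 0.265, 95% interval 0.29 to 1.40) that missed the threshold (limma adjusted p = 0.0549). It passed without prednisone 1, at 1.01 (limma adjusted p = 0.0314), and without control 3 (limma adjusted p = 0.0419).

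Ccnb1, the cyclin that partners Cdk1 at entry into mitosis, did not reach the level for a test. It measured 0.694, 0.661, 0.705, 0.321 and 0.412 FPKM in control, 0.409, 0.473, 0.371, 0.237 and 0.613 in the model, 0.483, 0.795, 0.423, 1.47 and 1.17 with SMD, and 0.463, 0.777, 1.12, 0.583 and 0.719 with prednisone. Only SMD 4, SMD 5 and prednisone 3 exceeded 1 FPKM, and all groups overlapped. Cdk1, the kinase itself, measured 1.2, 0.793, 0.582, 0.613 and 0.929 FPKM in control, 0.794, 0.755, 1.14, 0.784 and 0.633 in the model, 0.716, 0.671, 1.32, 1.6 and 2.36 with SMD, and 0.808, 1.21, 1.52, 1.09 and 1.55 with prednisone. Its SMD libraries 1 and 2 were as low as the model and SMD 5 was the highest of the 20. Cdk1 gave 0.31 with SMD (95% interval -0.03 to 0.65, limma adjusted p = 0.306) and 0.29 with prednisone (-0.05 to 0.63, limma adjusted p = 0.295) against the model.

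The other mitosis genes tested followed the same signs. Ccna2, the S and G2 cyclin, had means of 2.07 ± 0.467 FPKM in the model, 2.96 ± 1.08 with SMD and 3.11 ± 0.537 with prednisone (n = 5 each), with log2 fold changes of 0.34 and 0.42 against the model. Birc5, or survivin, which targets the Aurora B complex to chromosomes, was 2.11 ± 0.564, 3.27 ± 1.43 and 2.95 ± 0.574 FPKM in the same groups. Aurka, a spindle pole kinase, gave 0.34 with SMD and 0.30 with prednisone. Plk1, a kinase of mitotic entry and exit, gave 0.03 and 0.21, the smallest value of the 12 for SMD. Ube2c, with 592 of its 2600 exonic bases shared with Tnnc2 on the opposite strand, ranged from 1.61 to 6.58 FPKM. None of these was called by limma.

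**Figure D3:**
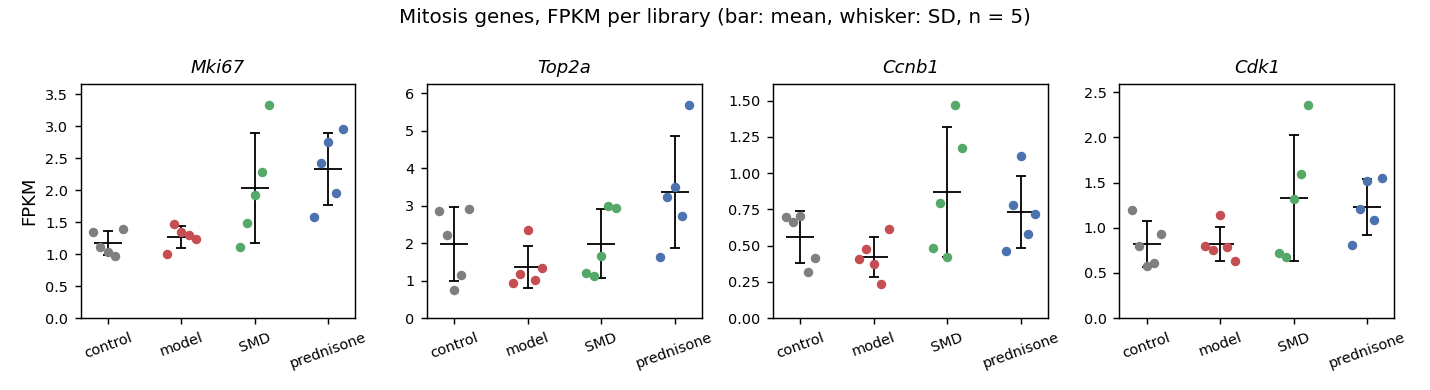
FPKM (y axis) of 4 mitosis genes in each library (points, replicates 1 to 5 from left to right) by group (x axis), with the mean as a bar and the SD as whiskers, n = 5. Mki67 separates prednisone from control and model, and the SMD libraries spread widely, from 1.11 to 3.33 FPKM for Mki67.

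Much of the variation ran between libraries of a group, and it was widest with SMD. The mean log2(FPKM + 1) of the 17 mitosis genes had an SD over the libraries of 0.337 with SMD and 0.238 with prednisone. That SD was 0.202 in control and 0.0933 in the model, so prednisone was close to control. The 17 mitosis genes summed to 15.7, 19.3, 26.1, 35.7 and 44.4 FPKM in SMD replicates 1 to 5 and to 19.1, 30.8, 36.0, 23.3 and 38.4 with prednisone. In control they summed to 26.8, 18.5, 13.8, 15.6 and 24.6, and in the model to 15.6, 20.8, 21.4, 17.7 and 21.7. The lowest library of each treatment thus lay within the range of control, and the top 2 SMD and top 3 prednisone libraries lay above every control and model library. SMD 5 was the highest of the 20 libraries for 12 of the 17 mitosis genes and 17 of the 33 replication genes, against 2.48% of all genes tested, and SMD 4 for 2 and 5 of them, against 7.19%. Among prednisone libraries, prednisone 1 was the lowest for 13 of the 17 mitosis genes, against 31.8% of all genes.

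**Figure D4:**
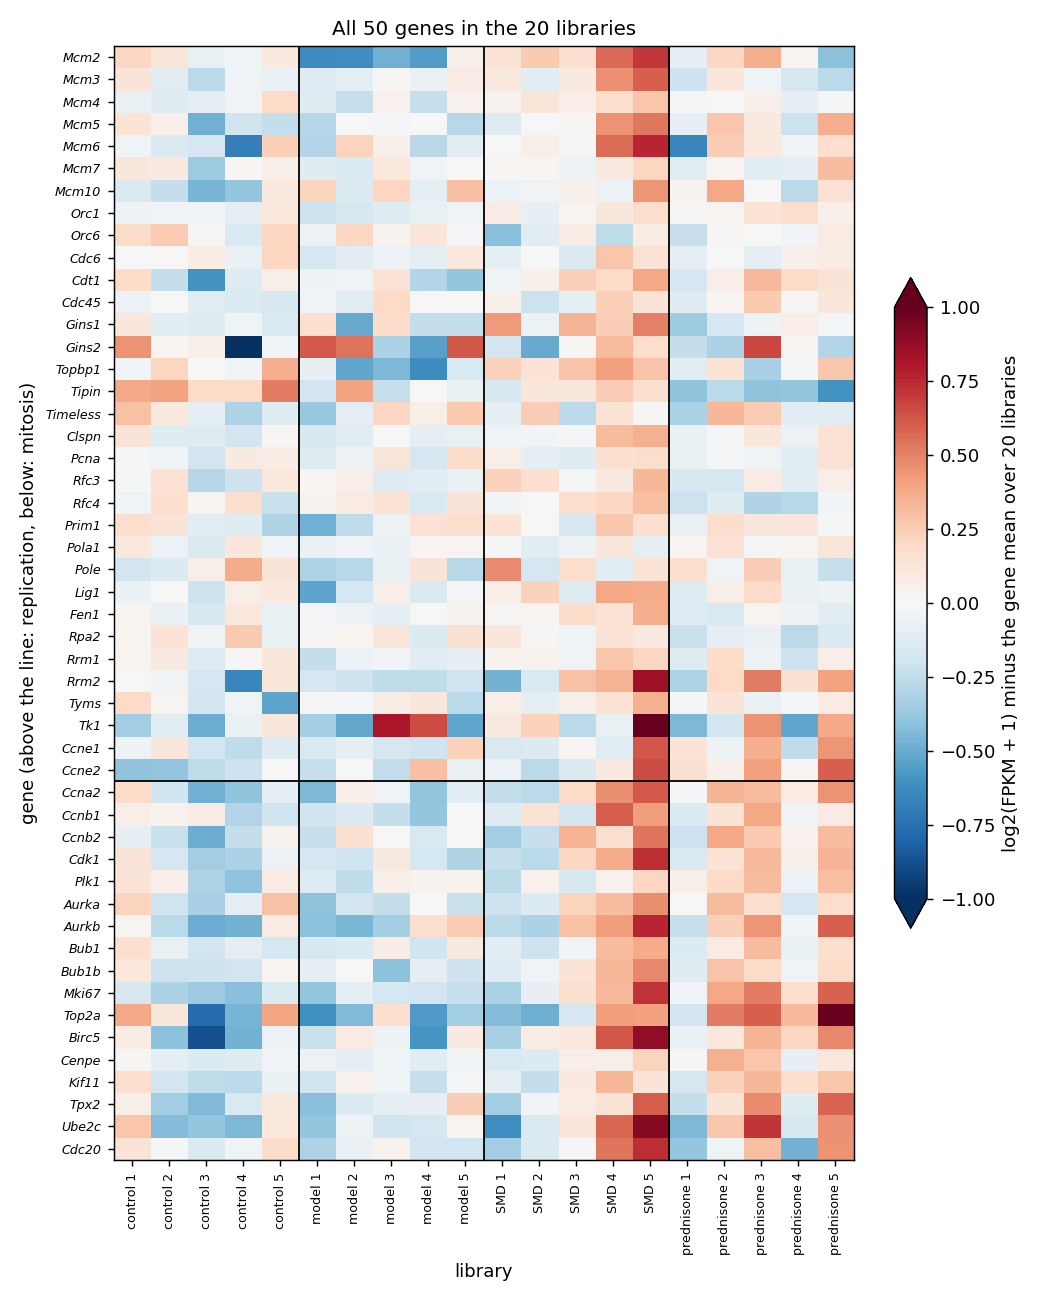
log2(FPKM + 1) of the 50 genes (y axis, replication above the line) in the 20 libraries (x axis), as the difference from the gene's mean over all libraries, with colours saturated at ±1. SMD 4 and 5 and prednisone 2, 3 and 5 are high for most mitosis genes, and SMD 4 and 5 for most replication genes, whereas Tipin is low in all prednisone libraries.

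Leaving out SMD 5 lowered the mitosis median for SMD against the model from 0.32 to 0.18, and leaving out SMD 1 raised it to 0.42. Without both SMD 4 and 5 it was 0.03, with 6 of 12 above 0, and the replication median was 0.08 in place of 0.19. For prednisone against the model the mitosis median stayed between 0.26, without prednisone 5, and 0.39, without prednisone 1. For SMD against prednisone it ran from -0.18, without SMD 5, to 0.06, without SMD 1, and was -0.28 without both SMD 4 and 5, with 0 of 12 above 0 and 3 lower at an unadjusted p under 0.05. Counts of mitosis genes higher at an unadjusted p under 0.05 moved with single libraries too: for SMD against the model the 2 were 0 without model 1, SMD 4 or SMD 5 and 7 without SMD 1, and for SMD against control they were at most 7, without SMD 1. For prednisone against the model the 4 were 2 without model 1 or prednisone 5 and 6 without prednisone 1, and against control the 5 were 1 without control 3 and 9 without prednisone 1. The 10 replication genes higher with SMD against the model were 6 without SMD 5 and 3 without SMD 4 and 5, and the 2 higher with prednisone against the model were 4 without SMD 5 or prednisone 1. The mitosis median with SMD was thus near 0 without these libraries, whereas Mcm2 and Topbp1 stayed above 0.5.

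Marker lists of other cells were set beside these sums. The 8 alveolar macrophage markers summed to 241, 206, 247, 257 and 292 FPKM in SMD replicates 1 to 5 and to 236, 260, 296, 195 and 318 with prednisone, so SMD 4 and 5 and prednisone 2, 3 and 5 were the highest of their groups in this sum as in the mitosis sum. Control lay at 219 to 242 and the model at 189 to 250. None of the 7 markers tested was called against the model for either treatment. Of all genes, 0.245% (SMD) and 0.914% (prednisone) rose and 1.91% and 7.13% fell. At an unadjusted p under 0.05, 2 (SMD) and 4 (prednisone) of the 7 were higher, against 3.14% and 5.04% of all genes. For prednisone against control, 3 of the 7 were called, where 1.78% of all genes rose and 1.79% fell. Of these 3, Chil3 (0.91) and Plet1 (0.47) rose and Car4 (-0.52) fell (limma adjusted p of 0.0387, 0.0157 and 0.0287). The 8 alveolar type 2 markers summed to 18500, 15700, 17000, 19300 and 19700 FPKM in SMD replicates 1 to 5. With prednisone their sums were 15200, 19900, 18600, 17600 and 20300. SMD 4 and 5 and prednisone 2, 3 and 5 were highest there too, so the match within these groups was not particular to macrophage markers. Between groups it did not hold for alveolar type 2 markers. Control lay at 14400 to 18800 FPKM and the model at 19700 to 23500, and the model had the highest mean of this sum but the lowest of the mitosis sum. Red cell precursor markers summed to 41.3, 44.8 and 41.4 FPKM in SMD 3, 4 and 5 and to at most 38.1 in the other libraries. Only 2 of the 8 were at a level that could be tested, and neither was called in any of the 6 comparisons. For SMD against control 0.291% of all genes rose and 0.761% fell. There 1 of the 2 was higher at an unadjusted p under 0.05, against 6.48% of all genes. Endothelial markers were lower with prednisone, where Tipin and Mki67 were called: the 8 summed to 905 to 1100 FPKM in control, 833 to 935 in the model, 707 to 1010 with SMD and 629 to 799 with prednisone. With prednisone against control, 4 of the 8 fell (Ramp2, Tek, Cdh5 and Tie1), where 1.79% of all genes fell and 1.78% rose. All 8 were lower at an unadjusted p under 0.05, against 10.5% of all genes. Against the model none was called by limma, where 7.13% of all genes fell, and 4 of the 8 passed that unadjusted mark, against 18.5%. SMD stood above prednisone for Kdr by limma, as for 2.16% of all genes. At an unadjusted p under 0.05 it did so for 6 of the 8, against 9.7% of all genes. The part of these cells in the results was not tested.

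Markers of developing and mature T cells were also read. Of the thymus markers, Rag1, Rag2, Dntt and Ptcra were listed at 0 in 13, 19, 11 and 11 of the 20 libraries and reached at most 0.131 FPKM. T cell markers summed to 30.8 to 54.0 FPKM in control, 40.2 to 53.4 in the model, 35.5 to 48.6 with SMD and 38.4 to 52.0 with prednisone. The 10 genes on a list of those induced by glucocorticoids summed to 425 to 621 FPKM with SMD and 667 to 967 in the model. In that comparison 6 of the 10 fell and none rose, where 1.91% of all genes fell and 0.245% rose. With prednisone, at 722 to 1170, none was called against the model, where 0.914% of all genes rose and 7.13% fell.

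The 12 genes below the level for a test lay between 0.0654 and 1.47 FPKM. They were Mcm10, Orc1, Cdc6, Cdc45, Clspn, Pole and Ccne1 for replication and Ccnb1, Bub1, Bub1b, Cenpe and Kif11 for mitosis. In a fit of all 37958 genes with any value, where all 50 could be counted, 28 of 33 replication and 17 of 17 mitosis genes were above 0 for SMD against the model, against 41.9% of all genes. For prednisone against the model the counts were 21 of 33 and 17 of 17, against 44.5%. In that fit Orc1, the largest subunit of the origin recognition complex, was called for prednisone against the model (0.135 ± 0.0525 and 0.304 ± 0.0646 FPKM, log2 fold change 0.20, limma adjusted p = 0.0438). Orc1 lay between 0.0654 and 0.392 FPKM, with every prednisone library above the model, as for 0.9% of the 15106 genes of the main fit. Tipin (limma adjusted p = 0.066) and Mki67 (limma adjusted p = 0.0897) were not called there. The calls were thus 1 of 33 replication and 0 of 17 mitosis genes, and the share of all genes called in that fit is not given here.

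Further cell cycle genes from lists of neighbouring functions were measured beside the 50. Of 35 other replication genes tested, 1 rose with SMD against the model, as did 0.245% of all genes: Gmnn, which encodes the licensing inhibitor geminin (10.5 to 14.0 FPKM, log2 fold change 0.39, limma adjusted p = 0.017). At an unadjusted p under 0.05, 3 of the 35 were higher and 5 lower, against 3.14% and 15.7% of all genes. In that comparison 23 of the 35 were above 0, against 34.3% of all genes, with a median of 0.06. Gmnn also rose against control, by 0.36, and stood above prednisone, by 0.33. Of 29 other mitosis genes tested, none was called for SMD against the model, with 7 higher at an unadjusted p under 0.05 and 27 of 29 above 0, against 3.14% and 34.3% of all genes. With prednisone against the model 2 of them rose, where 0.914% of all genes did, Kif22, a chromosome motor (0.976 to 2.13 FPKM, log2 fold change 0.67, limma adjusted p = 0.0429), and Smc2, a condensin subunit (0.31, limma adjusted p = 0.0497), while Pole3, a DNA polymerase epsilon subunit among the other replication genes, fell (-0.27, limma adjusted p = 0.0108).

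Genes that set entry into the cycle were also measured. The G1 cyclin Ccnd1 was higher with SMD (35.5 FPKM) than in control (26.2, log2 fold change 0.43, limma adjusted p = 0.0373) and than with prednisone (23.1, 0.61, limma adjusted p = 0.00148). It was the 1 called of 6 genes tested for G1 cyclins and their kinases, where 0.291% and 2.16% of all genes rose. For SMD against the model none of the 6 was called, where 0.245% of all genes rose and 1.91% fell. Their median there was -0.05, against -0.06 over all genes. The inhibitor gene Cdkn1c fell with SMD from 24.1 FPKM in the model to 16.1 (-0.55, limma adjusted p = 0.0261). SMD also stood above prednisone for the inhibitor gene Cdkn2b (9.71 against 5.83 FPKM, 0.64, limma adjusted p = 0.00418) and below it for Cdkn1a, which is also on the glucocorticoid list (10.5 against 31.6 FPKM, -1.46, limma adjusted p = 0.00265). In that comparison 1 inhibitor gene was thus higher and 1 lower of the 9 tested, where 2.16% of all genes were higher and 2.42% lower. Of 9 inhibitor genes tested, Cdkn1c was the one called for SMD against the model, where 1.91% of all genes fell. Gadd45a was the one called for prednisone against the model (-0.32, limma adjusted p = 0.0326), where 7.13% of all genes fell. None of the 14 cell cycle transcription factors tested was called against the model for either treatment.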

How the data were processed

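RNA of 20 mouse lung libraries was sequenced, 5 in each of 4 groups (group and number from the labels; for prednisone 5, whose treatment label repeats another number, from the title). The authors deposited FPKM values. Per the submitters' processing notes, the build was GRCm38 and the tools were fastp, HISAT2, featureCounts and DESeq2; the maker of the FPKM values, the versions and the strand setting are, in the sources used here, not given. The depth of each library is unknown: among 21352 single-exon genes, at best 14.5% to 17.9% of values came within 0.05 of whole reads, where 10% come by chance.

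From these, log2(FPKM + 1) was fitted with limma 3.58.1 in R 4.3.3 (eBayes with a trend), 1 fit of all 20 libraries without covariates, over 15106 genes with 1 FPKM or more in at least 5 libraries. Such fold changes understate those of low genes. Tests were two-sided, with Benjamini-Hochberg adjustment over all genes of each of 6 comparisons, and called at an adjusted p under 0.05. The fit was tested on simulated data. Intervals are 95%. Symbols and positions come from GENCODE M21, promoters from RefSeq (GRCm38.p6).

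The genes and lists were chosen with earlier results of these data known. Values in every library are given for the genes called in any comparison and for Mcm2, Mcm5, Mcm6, Topbp1, Pcna, Rrm2, Mki67, Top2a, Ccnb1 and Cdk1; the others by ranges and counts, with some named after their values were seen, as was the Mcm6 promoter. Up to 4 called genes were named per other list and comparison. Alternatives were other scalings, filters and pseudocounts, only the groups compared, a replicate block, the adipose level as a covariate, and leaving out libraries; leaving out SMD 4 and 5 together was chosen after seeing the data.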

Additional observations from a re-analysis of the deposited data

Results flagged for a closer look

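In 48 sets of 5 libraries (12 genes in 4 groups), 2 held a value far from the other 4; chance alone flags about 1 in 20 sets. Mcm2 measured 2.86 FPKM in model 5, where the other model libraries lay between 1.4 and 1.68. Top2a measured 2.34 FPKM in model 3, where the others lay between 0.94 and 1.34.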

How the results depend on the processing

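Calls under alternatives are counted as genes called. For SMD against the model, the 2 replication genes were 1 when only the groups compared were fitted (Topbp1), 0 with the adipose covariate and 0 without SMD 4 and 5, and 2 each time a single library was left out. For prednisone against the model, the 1 replication gene was 0 with quantile normalization, with the adipose covariate and with a fit of the compared groups alone, and 0 to 2 when single libraries were left out; the gene called was Topbp1 with median-of-ratios scaling and Orc1 without a filter. The 1 mitosis gene of that comparison was 0 with quantile normalization, without a filter and with the adipose covariate, and 0 to 2 when single libraries were left out. For SMD against prednisone, the 2 replication genes were 1 without a filter, with a mean of 0.5 FPKM as the filter, with the adipose covariate and with the compared groups alone, 0 without SMD 4 and 5, and 1 to 3 when single libraries were left out. For prednisone against control, the 1 replication gene became 2 with median-of-ratios scaling and with quantile normalization (Rpa2 added) and 1 to 2 when single libraries were left out, and the 1 mitosis gene was 0 without a filter and with the adipose covariate, and 0 to 1 when single libraries were left out. The cause of these changes was not tested. No named gene that was called changed its sign in any alternative.

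Replicate numbers gave no visible sign of pairing. Deviations of same-numbered libraries correlated over 0.1 in 6 of 30 pairs, and those of other numbers in 20 of 120 (median correlations -0.004 and 0.004). With a replicate block, SMD against prednisone called 1 replication gene in place of 2 (Rfc4 lost, limma adjusted p = 0.0791), and the other counts of member calls did not change.

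All-gene counts moved widely: 2 to 528 (325 reported) for SMD against the model, 325 to 1703 (1215) for prednisone against the model, 197 to 926 (693) for SMD against prednisone, 0 to 217 (159) for SMD against control, 80 to 741 (540) for prednisone against control and 0 to 111 (29) for the model against control. Most mitosis genes lay near 1 FPKM, where the depth is unknown and the pseudocount compresses changes.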
